A study of Homo sapiens with 6 samples.

Results

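The genes described here encode the WNT ligands, the Frizzled receptors with their LRP co-receptors, the secreted antagonists, and the proteins that restrain or carry out the response to WNT. The rule that chose them used gene symbols and was set with earlier results of these data known. It took WNT, FZD, SFRP and DKK followed by their family numbers, together with LRP5, LRP6, WIF1, AXIN1, AXIN2, LEF1, TCF7, TCF7L1, TCF7L2, RNF43, ZNRF3, LGR4, LGR5 and NKD1. The rule matched 42 of the 33451 genes in the table of counts. The symbols WNT2, WNT8A, WNT9B, WNT16, FZD9, FZD10, SFRP2, SFRP4 and DKK1 also fit the rule but have no row in that table, so they were not analysed.

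The mRNA came from MDA-MB-453, an established human breast cancer cell line. Control cells were cultured for 5 days with the alcohol solvent, and the other group for 5 days with 100 nM 25(OH)D, the circulating precursor of the active vitamin D hormone. Each group had 3 libraries, called replicates 1 to 3 after their labels, and both groups shared the same parental line with no transgene or knockdown. All libraries are of 1 cell line. The study's methods call the replicates biological without saying how the cultures were separated, so the p-values measure only the spread between these libraries.

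WNT proteins are secreted, lipid-modified signals. In the canonical branch a WNT binds a Frizzled receptor and LRP5 or LRP6, the cytoplasmic complex built on AXIN stops marking beta-catenin for destruction, and beta-catenin enters the nucleus to act with LEF and TCF factors. The ubiquitin ligases RNF43 and ZNRF3 remove Frizzled from the cell surface, and SFRP, DKK and WIF proteins block ligand or co-receptor outside the cell. In the breast, WNT signals are known for their part in the maintenance of mammary stem cells, and the hormone made from 25(OH)D acts through the vitamin D receptor.

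Read counts and levels are used below. A level is given as RPKM, the count scaled to the length of the gene and to the size of the library after TMM scaling, so that levels of different genes can be compared. Fold changes of 25(OH)D against control, on the log2 scale, and their p-values came from the quasi-likelihood test of edgeR on the counts of all 18183 genes that passed its low-count filter. Genes with a Benjamini-Hochberg adjusted p under 0.05 over all those genes were called, as higher or lower by the sign of the change. Of the 42 genes, 26 passed the filter and 16 had too few counts to be tested.

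The libraries held between 33268860 and 40928176 counts, and 3 counts corresponded to between 0.0720 and 0.0921 CPM. The luminal markers EPCAM, KRT8, KRT18, KRT19, GATA3, FOXA1 and ERBB2 were abundant in every library and summed to between 1079 and 1119 RPKM in control and between 1022 and 1028 RPKM in 25(OH)D. Among them GATA3 lay between 79.2 and 81.2 RPKM in control and between 45.2 and 47.5 RPKM in 25(OH)D, FOXA1 between 28.1 and 30.2 and between 19.4 and 22.2 RPKM, and KRT19 between 327 and 349.6 and between 251 and 262 RPKM. The levels of KRT8, KRT18, EPCAM and ERBB2 were higher in each 25(OH)D library than in each control library. The part of these marker differences in the results was not tested. Of 10 markers of basal, fibroblast, endothelial and leukocyte cells, 8 were listed, COL3A1 and CDH5 were not, and the listed ones summed to between 3.85 and 4.10 RPKM in control and between 3.62 and 3.71 RPKM in 25(OH)D. COL1A1 made up most of that sum, and without it the highest single value was 0.299 RPKM. The mitochondrial share of counts was between 7.85% and 7.99% in control and between 8.89% and 9.24% in 25(OH)D, and the part of that difference in the results was not tested. The 42 genes together took between 0.0505% and 0.0522% of the counts in control and between 0.0452% and 0.0464% in 25(OH)D. In cultures sequenced in bulk, fewer cells that express a gene and less of its RNA in each cell cannot be told apart.

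With 25(OH)D, 8 of the 26 tested genes were called. WNT7B, WNT2B and WNT8B rose, and WNT3, FZD6, RNF43, ZNRF3 and AXIN1 fell. The calls thus comprised 4 ligands, the most abundant Frizzled receptor, both ubiquitin ligases that clear Frizzled and 1 AXIN scaffold, and no co-receptor or transcription factor was called. The share called was 30.8%, against 33.8% of all genes tested. The share called higher was 11.5%, against 17.3% of all genes, and the share called lower was 19.2%, against 16.5%. The median log2 fold change was -0.07 over the 26 genes and -0.01 over all genes. The values of the groups did not overlap for 10 of the 26 genes, and did not overlap for 45.7% of all genes. These shares lie near those of all genes, so the results below concern the single genes rather than the family.

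**Figure D1:**
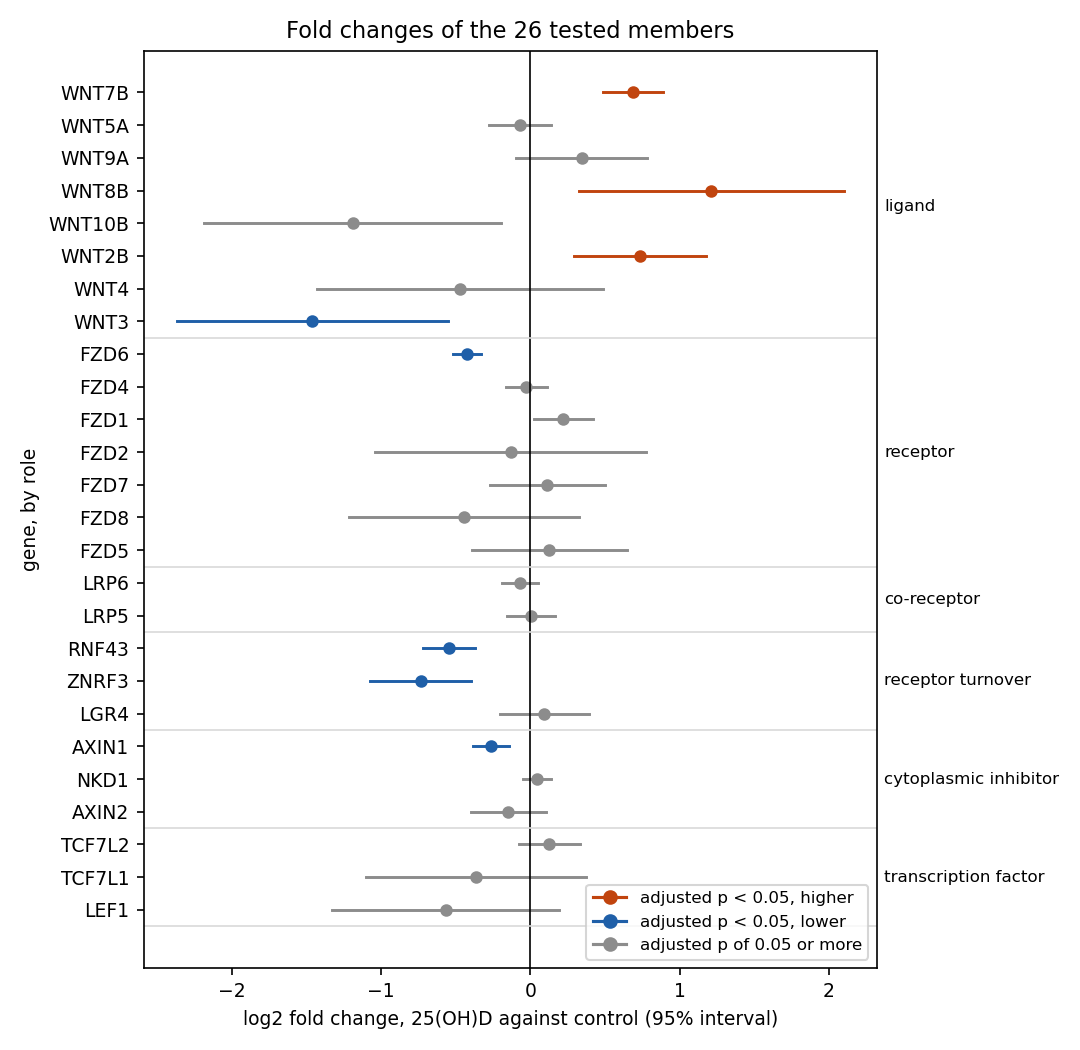
Log2 fold change of 25(OH)D against control (horizontal axis) for each of the 26 tested genes, grouped by role, with 3 libraries in each group. Points are edgeR estimates, lines are 95% intervals, and colours mark the genes called higher or lower, which are 3 and 5 in number.

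Promoters of the called genes are shown so that the sequence in front of the genes that moved can be read beside their direction. RefSeq windows of GRCh38.p14 matched 26 of the 42 genes, with 33 start sites, and covered 5 of the called genes (AXIN1, RNF43, WNT3, WNT2B and WNT8B) with 7 start sites. WNT7B, ZNRF3 and FZD6 had no window. Each sequence below is the part of the 250 bases upstream of a start site that lies outside annotated exons, read 5′ to 3′ in the direction of the gene. Capitals mark the GC box GGGCGG on either strand, a motif bound by SP family factors, which was chosen after the sequences were seen.
AXIN1, chr16:352724-352973, minus strand: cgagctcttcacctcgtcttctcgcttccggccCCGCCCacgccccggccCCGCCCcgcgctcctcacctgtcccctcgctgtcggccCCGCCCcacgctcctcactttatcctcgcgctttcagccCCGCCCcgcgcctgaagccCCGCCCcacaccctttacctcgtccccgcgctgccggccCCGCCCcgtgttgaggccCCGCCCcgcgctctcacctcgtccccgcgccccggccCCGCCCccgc
RNF43, chr17:58417596-58417784, minus strand: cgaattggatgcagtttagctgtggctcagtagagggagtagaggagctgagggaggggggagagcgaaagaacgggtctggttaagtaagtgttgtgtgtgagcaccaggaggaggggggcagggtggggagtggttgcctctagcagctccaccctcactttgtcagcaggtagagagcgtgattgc
WNT3, chr17:46818761-46818942, minus strand: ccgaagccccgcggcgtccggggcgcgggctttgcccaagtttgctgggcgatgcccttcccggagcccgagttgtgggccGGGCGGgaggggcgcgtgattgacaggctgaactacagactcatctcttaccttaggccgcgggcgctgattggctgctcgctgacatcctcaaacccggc
WNT2B, chr1:112466291-112466540, plus strand: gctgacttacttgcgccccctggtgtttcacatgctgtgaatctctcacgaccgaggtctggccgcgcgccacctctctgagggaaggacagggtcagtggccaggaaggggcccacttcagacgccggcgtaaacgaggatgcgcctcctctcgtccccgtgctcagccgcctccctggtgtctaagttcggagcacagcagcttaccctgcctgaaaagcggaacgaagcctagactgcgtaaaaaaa
WNT8B, chr10:100462759-100463008, plus strand: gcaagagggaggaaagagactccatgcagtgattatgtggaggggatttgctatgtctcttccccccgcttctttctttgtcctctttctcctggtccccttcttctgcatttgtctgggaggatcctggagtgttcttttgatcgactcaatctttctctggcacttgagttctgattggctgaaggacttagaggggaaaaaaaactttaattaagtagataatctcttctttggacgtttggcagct
The AXIN1 window held 8 GC boxes and 77.6% G and C, and the WNT3 window held 2 GC boxes, 1 of them in the stretch shown. No GC box occurred upstream of either RNF43 start site, upstream of WNT8B, or upstream of the outer WNT2B start site shown here. The inner WNT2B start site had 4. A GC box occurred in 3 of the 7 windows of the called genes and in 23 of the 33 windows of the family. It occurred in 42.6% of the 35116 windows of all genes, among which the median content of G and C was 58.0%. The part of G and C content in these shares was not tested. RNF43, with 56.0% and 45.2% G and C at its start sites, held fewer of these bases than AXIN1, and both genes fell. The core CTTTGA of the TCF and LEF site, searched on both strands, occurred in none of the 33 windows and in 11.2% of all windows. For half-sites of the vitamin D receptor element, only the strings AGGTCA and GGTTCA were searched, on either strand. They occurred in the windows of TCF7 and TCF7L2 only, against 18.1% of all windows. These strings in direct repeat with 3 bases between them occurred in none of the 33 windows and in 0.0142% of all windows. Other forms of the half-site were not searched, so the windows of the called genes may hold them. These matches describe letters in short windows and say nothing of binding.

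Among the ligands, 15 genes were listed and 8 were tested, of which 3 were called higher and 1 lower. WNT7B, a ligand of the canonical branch expressed in epithelia, was the most abundant (GRCh38, chr22:45920362-45977129, minus strand). Its level was 1.54, 1.59 and 1.64 RPKM in control replicates 1 to 3 and 2.61, 2.38 and 2.69 RPKM in the 25(OH)D libraries. The 25(OH)D libraries all lay above the control libraries with a wide gap. Its log2 fold change was 0.69 ± 0.09 (SE), which is 1.61-fold, with an adjusted p of 4.78e-05 in edgeR. The counts behind it were between 304 and 324 in control and between 443 and 463 in 25(OH)D.

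WNT2B, a canonical ligand also known from the developing mesenchyme, was much less abundant (chr1:112466541-112530165, plus strand). Its level was 0.103, 0.154 and 0.138 RPKM in control and 0.235, 0.203 and 0.217 RPKM in 25(OH)D. The groups did not overlap, and the log2 fold change was 0.73 ± 0.21 (SE) with an adjusted p of 0.0130 in edgeR. The call was lost without control replicate 1, where the log2 fold change was 0.59 and the adjusted p 0.0533. WNT2B shares 2661 of its 12561 exon bases with ST7L on the opposite strand, and ST7L itself rose by 0.35 on the log2 scale (adjusted p of 0.00467). The library kit marked strand, and the strand setting of the counting is not given in the sources used here.

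WNT8B, a ligand best known from the embryonic brain, was counted between 13 and 19 times in each control library (chr10:100463041-100483744, plus strand). Its level was 0.148, 0.238 and 0.206 RPKM in control and 0.337, 0.333 and 0.712 RPKM in 25(OH)D. All 25(OH)D libraries lay above control, and replicate 3 of 25(OH)D, with 49 counts, lay far above its own group. The log2 fold change was 1.21 ± 0.41 (SE), with an adjusted p of 0.0352 in edgeR. The call depended on single libraries: the adjusted p was 0.217 without 25(OH)D replicate 3, where the log2 fold change fell to 0.78, and 0.112, 0.0572 and 0.0699 without control replicates 1, 2 and 3.

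WNT3, a canonical ligand that sustains epithelial stem cells in the intestine, changed in the opposite direction (chr17:46762506-46833154, minus strand). Its counts were 32, 24 and 34 in control and 8, 16 and 6 in 25(OH)D, and its level was 0.177, 0.146 and 0.213 RPKM against 0.0525, 0.0960 and 0.0425 RPKM. Every 25(OH)D library lay below every control library. The log2 fold change was -1.46 ± 0.42 (SE), with an adjusted p of 0.0152 in edgeR. The adjusted p was 0.0665 without control replicate 3, 0.0659 without 25(OH)D replicate 1 and 0.0639 without 25(OH)D replicate 3, with log2 fold changes of -1.31, -1.33 and -1.24.

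The other tested ligands did not pass the test. WNT10B, a canonical ligand expressed in the mammary gland, was 0.475, 0.342 and 0.289 RPKM in control and 0.303, 0.0791 and 0.105 RPKM in 25(OH)D, so that replicate 1 of 25(OH)D lay among the controls. Its log2 fold change was -1.19 ± 0.46 (SE) with an adjusted p of 0.0635 in edgeR, and without 25(OH)D replicate 1 it was -2.00 with an adjusted p of 0.00684. WNT5A, the main ligand of the non-canonical branch, had a level of 1.18 ± 0.0300 RPKM (SD, n = 3) in control and 1.13 ± 0.0460 RPKM in 25(OH)D. The 95% interval of its log2 fold change ran from -0.27 to 0.14. WNT9A averaged 0.533 and 0.673 RPKM in control and 25(OH)D. WNT4, a ligand downstream of progesterone in the mammary gland, averaged 0.148 and 0.108 RPKM, and its 25(OH)D libraries ranged from 0.0440 to 0.176 RPKM.

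The remaining 7 ligands were too low to test. WNT5B had at most 4 counts in every library except 25(OH)D replicate 2, which had 20. WNT11, WNT6, WNT3A, WNT10A, WNT1 and WNT7A had at most 4 counts in any library.

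The make-up of the ligand mRNA differed between the groups. The levels of all 15 ligands summed to 4.25, 4.40 and 4.52 RPKM in control and to 5.44, 5.30 and 5.78 RPKM in 25(OH)D, without overlap. WNT7B took 36.2% ± 0.0587 (SD, n = 3) of the sum in control and 46.5% ± 1.54 in 25(OH)D. The share of WNT5A was 26.9% ± 0.259 and 20.5% ± 1.51, while its own level did not pass the test. The share of WNT8B was 4.48% ± 0.965 in control and 8.26% ± 3.51 in 25(OH)D. It was 12.3% in 25(OH)D replicate 3, against 6.2% and 6.3% in replicates 1 and 2. The share of WNT10B was 8.45% ± 2.46 and 2.96% ± 2.27, and that of WNT3 4.07% ± 0.697 and 1.17% ± 0.567. The level of WNT7B was between 1.33 and 1.36 times that of WNT5A in control and between 2.13 and 2.47 times in 25(OH)D. These sums and shares were given no test of their own.

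**Figure D2:**
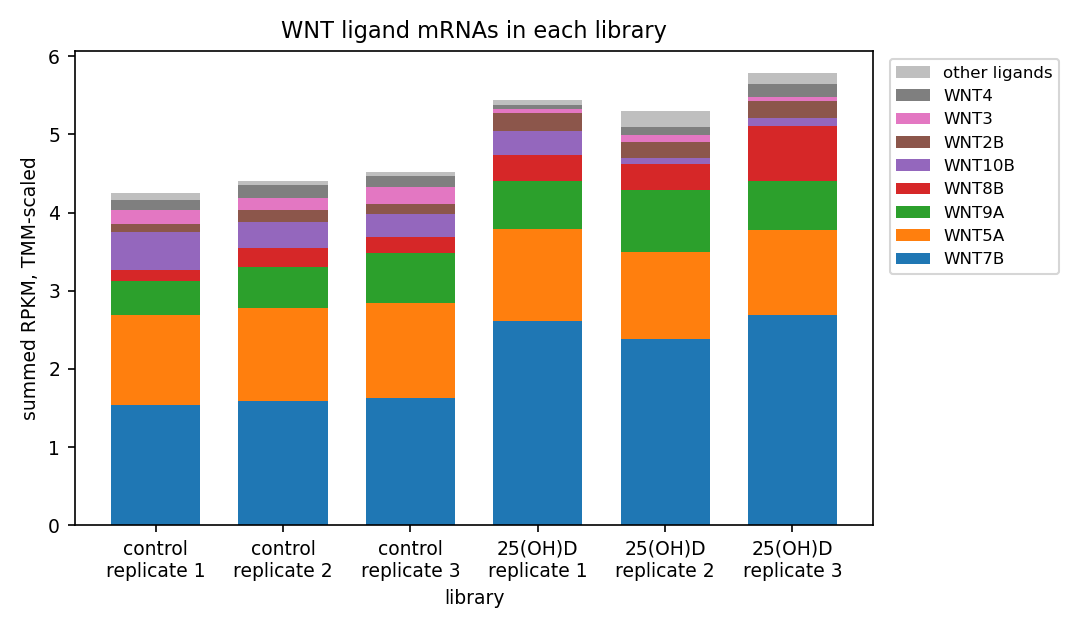
Stacked levels (RPKM, vertical axis) of the WNT ligand mRNAs in each of the 6 libraries (horizontal axis), with the 7 untested ligands pooled as other ligands. WNT7B is the lowest block and is taller in each 25(OH)D library, at 2.38 to 2.69 RPKM, than in each control library, at 1.54 to 1.64 RPKM.

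Among the Frizzled receptors, 8 genes were listed and 7 were tested, and FZD6 alone was called. FZD6, a receptor that can restrain canonical signalling and acts in planar cell polarity, was by far the most abundant. Its level was 26.5, 26.3 and 26.5 RPKM in control and 20.1, 19.6 and 19.5 RPKM in 25(OH)D. The spread within each group was small against the gap between them. The log2 fold change was -0.42 ± 0.04 (SE), which is 1.34-fold lower, with an adjusted p of 2.46e-06 in edgeR. FZD6 shares 138 of its 4065 exon bases with BAALC-AS1 on the opposite strand, a gene with between 33 and 70 counts. BAALC-AS1 also fell, by 0.78 on the log2 scale (adjusted p of 0.0206 in edgeR). FZD6 itself had between 2579 and 4487 counts.

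FZD4, a receptor for canonical WNT and for Norrin, was the next most abundant, at 5.98 ± 0.432 RPKM (SD, n = 3) in control and 5.88 ± 0.208 RPKM in 25(OH)D. The 95% interval of its log2 fold change ran from -0.16 to 0.11. Of its 7383 exon bases, 1399 lie opposite PRSS23, a gene that rose by 0.73 on the log2 scale (adjusted p of 1.34e-08 in edgeR). FZD1 was 1.83, 1.79 and 1.52 RPKM in control and 1.92, 2.02 and 2.06 RPKM in 25(OH)D, so the groups did not overlap, and the adjusted p of 0.0820 missed the threshold. FZD7, known in breast cancer as a canonical receptor, averaged 0.759 and 0.825 RPKM, and FZD5 averaged 0.219 and 0.240 RPKM.

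FZD2 and FZD8 varied widely between libraries of the same group. FZD2 was 1.75, 0.789 and 1.003 RPKM in control and 1.08, 0.357 and 1.86 RPKM in 25(OH)D. Its coefficient of variation was 42.8% in control and 68.4% in 25(OH)D, where counting error alone, with every count independent, would give 10.1% and 11.2%. FZD8 was 0.548, 0.394 and 0.364 RPKM in control and 0.141, 0.310 and 0.518 RPKM in 25(OH)D, with a coefficient of variation of 58.4% in 25(OH)D against 14.8% from counting. Neither passed the test, and the 95% interval of the log2 fold change was -1.04 to 0.78 for FZD2 and -1.21 to 0.32 for FZD8. FZD3 had between 2 and 10 counts and was not tested. The study's sequencing was paired-end, and the counts of FZD8, FZD1 and WNT3 were even in every library. If both reads of a pair were counted, counting error is larger than stated here.

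The Frizzled levels summed to between 36.0 and 38.1 RPKM in control and between 28.9 and 30.8 RPKM in 25(OH)D. FZD6 took 72.0% ± 2.15 (SD, n = 3) of that sum in control and 65.6% ± 2.21 in 25(OH)D. Its level was between 4.09 and 4.61 times that of FZD4 in control and between 3.29 and 3.39 times in 25(OH)D.

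The co-receptors LRP5 and LRP6, which pair with Frizzled in the canonical branch, did not pass the test. LRP6 was 7.71 ± 0.251 RPKM (SD, n = 3) in control and 7.35 ± 0.517 RPKM in 25(OH)D. LRP5 was 4.57 ± 0.443 RPKM and 4.59 ± 0.161 RPKM. The 95% intervals of their log2 fold changes were -0.19 to 0.05 for LRP6 and -0.16 to 0.17 for LRP5.

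**Figure D3:**
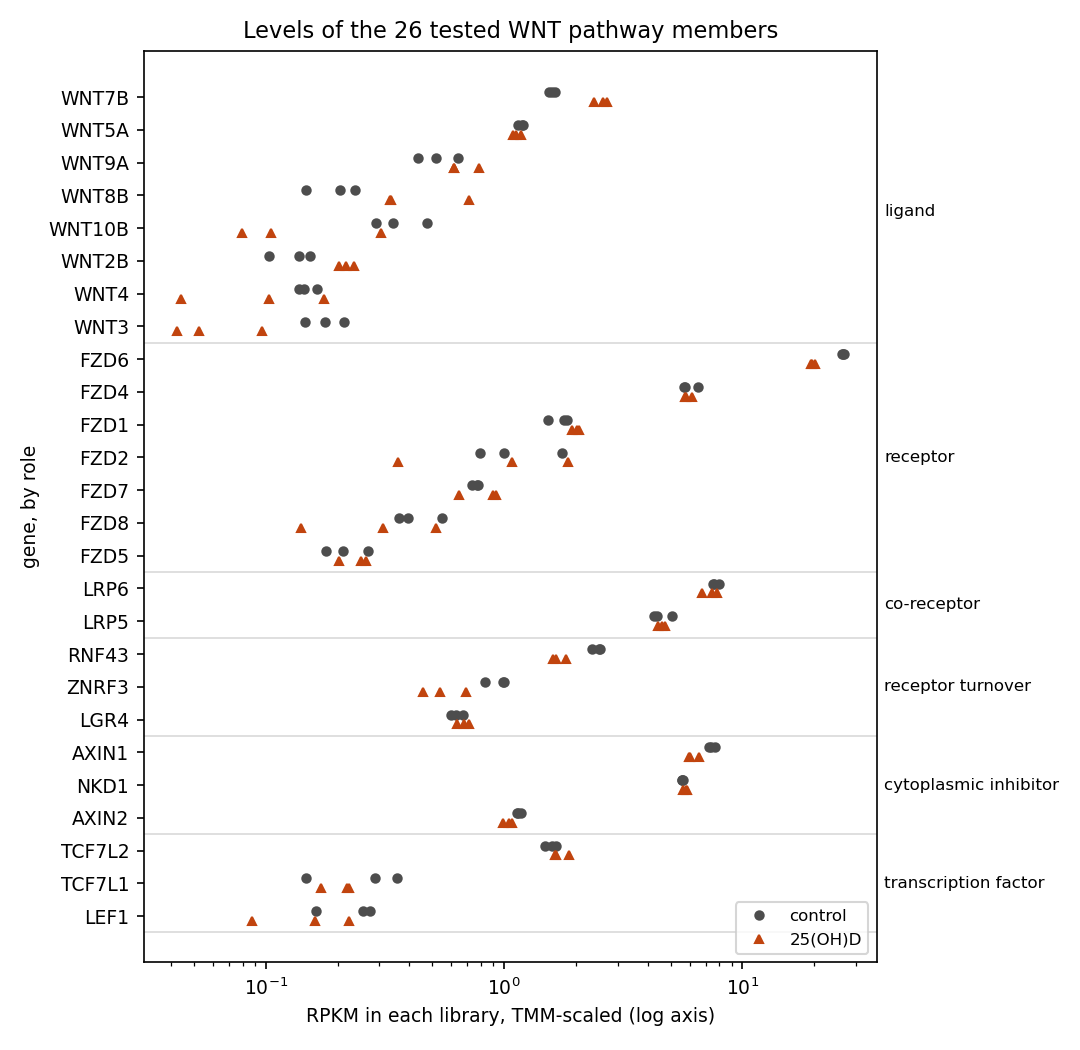
Level of each of the 26 tested genes in every library (RPKM, horizontal log axis), grouped by role, with circles for the 3 control libraries and triangles for the 3 25(OH)D libraries. FZD6 lies highest, at 19.5 to 26.5 RPKM, and the ligands other than WNT7B and WNT5A lie below 1 RPKM.

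Both ubiquitin ligases that remove Frizzled from the cell surface fell. RNF43 (chr17:58352500-58417595, minus strand) was 2.51, 2.35 and 2.53 RPKM in control and 1.61, 1.65 and 1.82 RPKM in 25(OH)D. All 25(OH)D libraries lay below all control libraries. The log2 fold change was -0.54 ± 0.08 (SE), which is 1.46-fold lower, with an adjusted p of 0.000116 in edgeR. RNF43 shares 1521 of its 7505 exon bases with TSPOAP1-AS1 on the opposite strand and 143 with SUPT4H1 on the same strand, and neither of those genes was called.

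ZNRF3, the partner of RNF43 in this role (chr22:28883592-29057487, plus strand), was 0.831, 0.994 and 0.990 RPKM in control and 0.694, 0.537 and 0.458 RPKM in 25(OH)D. The groups did not overlap. The log2 fold change was -0.73 ± 0.16 (SE), which is 1.66-fold lower, with an adjusted p of 0.00226 in edgeR. The level of RNF43 was between 2.36 and 3.02 times that of ZNRF3 in control and between 2.32 and 3.96 times in 25(OH)D, which overlap.

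LGR4 and LGR5 are receptors for R-spondins, the secreted proteins that draw RNF43 and ZNRF3 away from Frizzled. LGR4 averaged 0.632 and 0.675 RPKM in control and 25(OH)D and did not pass the test, with a 95% interval of its log2 fold change from -0.20 to 0.39. LGR5, a marker of intestinal stem cells, had between 4 and 10 counts and was not tested.

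AXIN1, the scaffold of the complex that marks beta-catenin for destruction, fell slightly (chr16:287440-352673, minus strand). It was 7.64, 7.24 and 7.37 RPKM in control and 5.97, 6.57 and 5.997 RPKM in 25(OH)D, without overlap. The log2 fold change was -0.26 ± 0.06 (SE), which is 1.20-fold lower, with an adjusted p of 0.00221 in edgeR.

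AXIN2, a scaffold of the same complex and a widely used target gene of beta-catenin, was less abundant, with AXIN1 at between 5.71 and 6.73 times its level. It was 1.14, 1.15 and 1.18 RPKM in control and 0.991, 1.08 and 1.05 RPKM in 25(OH)D. The 25(OH)D libraries lay below the control libraries, but the log2 fold change of -0.15 ± 0.12 (SE) had an adjusted p of 0.368 in edgeR. AXIN2 shares 1316 of its 5226 exon bases with a gene named CTD-2535L24.2 on the same strand, so its reads are uncertain. NKD1, an inhibitor that binds Dishevelled and is itself induced by WNT in many tissues, was 5.59 ± 0.0410 RPKM (SD, n = 3) in control and 5.77 ± 0.139 RPKM in 25(OH)D. NKD1 missed the threshold too, and the 95% interval of its log2 fold change ran from -0.05 to 0.14.

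All 6 secreted antagonists matched by the rule were near 0. TSKU, a further secreted protein that binds Frizzled, was outside the rule and is described below. SFRP1 had 4, 6 and 6 counts in control and 0, 0 and 2 in 25(OH)D, too few for a test. SFRP5, DKK2, DKK3, DKK4 and WIF1 had at most 6 counts in any library, and the 6 antagonists summed to 0.0601 RPKM in control and 0.0529 RPKM in 25(OH)D. Differences among them were not detectable at this depth.

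The transcription factors that partner beta-catenin were not called. TCF7L2 was the most abundant, at 1.57 ± 0.0852 RPKM (SD, n = 3) in control and 1.72 ± 0.134 RPKM in 25(OH)D. TCF7L1 averaged 0.264 and 0.204 RPKM, and LEF1 averaged 0.231 and 0.157 RPKM with overlapping groups. TCF7 had between 2 and 16 counts and was not tested.

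Limits on the size of the change gave a smaller set. The study's volcano plot draws its limits at 1 for the absolute log2 fold change and at 0.05 for the unadjusted p. Past both in the fit used here, 6.65% of all genes were called and 3 of the 26. These were WNT8B, which was higher, and WNT3 and WNT10B, which were lower, and all had at most 52 counts in any library. WNT7B, WNT2B, FZD6, RNF43, ZNRF3 and AXIN1 lay inside the limit of the fold change. The study's own fit reported fewer genes past these limits than the fit used here.

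A list of 91 other genes of WNT signalling placed these results among the rest of the pathway. Of them 85 were in the table and 65 were tested. The test called 26, which is 40.0% against 33.8% of all genes tested. Of these, 9 were higher, which is 13.8% against 17.3% of all genes, and 17 were lower, which is 26.2% against 16.5%. The median log2 fold change was -0.06 over these 65 genes. Among the 23 tested genes of the cytoplasmic relay, 5 were higher (CTNNB1, TNKS2, BTRC, FBXW11 and CCDC88C) and 3 lower (GSK3B, CSNK1E and CXXC4). Among 12 nuclear cofactors none was higher and 4 were lower (TLE1, TLE4, BCL9L and PYGO2). Among 13 non-canonical receptors and polarity genes, PRICKLE1 was higher and 4 were lower (PRICKLE2, ROR2, PTK7 and DAAM1). Among 5 secreted or surface modulators, TSKU was higher, and GPC4 and KREMEN1 were lower. Of the 2 genes for ligand secretion, WLS, the carrier of WNT to the cell surface, was lower, with a log2 fold change of -0.31 ± 0.11 (SE). Among 10 tested target genes known from other cells, CCND1 and BAMBI were higher, and EPHB2, EPHB3 and BMP4 were lower. Of the 26 called genes, 19 kept their call without any single library. The other 7 (BTRC, CCDC88C, DAAM1, FBXW11, PTK7, PYGO2 and WLS) each lost it without at least 1 library. In the 6 fits that each left out 1 library, WLS, CCDC88C and DAAM1 lost their call in 5, PYGO2 in 4, PTK7 and FBXW11 in 3 and BTRC in 1. The highest adjusted p in those edgeR fits was 0.151 for WLS, 0.158 for CCDC88C, 0.214 for DAAM1 and 0.192 for PYGO2.

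The strongest rises in the pathway list exceeded any among the ligands and receptors. TSKU, a secreted proteoglycan that binds Frizzled and other signal proteins, was 7.53, 7.39 and 8.12 RPKM in control and 46.8, 49.5 and 44.0 RPKM in 25(OH)D, a 6.10-fold difference. BAMBI, a membrane pseudoreceptor for TGF-beta that also acts in WNT signalling, rose from 3.93 ± 0.148 to 14.1 ± 0.711 RPKM (SD, n = 3). PRICKLE1, a core protein of planar cell polarity, rose from 0.459 ± 0.0400 to 2.81 ± 0.413 RPKM. Their log2 fold changes were 2.61 for TSKU, 1.84 for BAMBI and 2.61 for PRICKLE1, with the largest adjusted p at 9.14e-10 in edgeR.

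Lower genes included corepressors and surface proteins. TLE1 and TLE4, corepressors that occupy TCF when beta-catenin is absent, had log2 fold changes of -1.25 ± 0.08 and -0.92 ± 0.07 (SE). TLE1 was 19.4, 17.7 and 14.9 RPKM in control and 7.22, 7.51 and 7.12 RPKM in 25(OH)D. PRICKLE2, the relative of PRICKLE1, moved the opposite way, from 5.23 ± 0.253 to 3.44 ± 0.125 RPKM (SD, n = 3). GPC4, a glypican that binds WNT at the surface, had a log2 fold change of -0.64, and KREMEN1, a receptor for DKK proteins, one of -0.69. CXXC4, an inhibitor that binds Dishevelled, had between 39 and 53 counts in control and between 8 and 15 in 25(OH)D, with a log2 fold change of -1.82 ± 0.37 (SE).

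The target genes did not share a direction. EPHB2 and EPHB3, ephrin receptors induced by WNT in the intestine, were lower, with log2 fold changes of -1.91 ± 0.36 and -0.67 ± 0.07 (SE), and BMP4 was lower with -0.64 ± 0.08. EPHB2 rested on few reads, with between 38 and 66 counts in control and between 8 and 16 in 25(OH)D. CCND1, the cell cycle gene cyclin D1, was higher, from 75.7 ± 4.69 to 96.2 ± 5.63 RPKM (SD, n = 3), as was BAMBI. CTNNB1, which encodes beta-catenin, had a log2 fold change of 0.23 ± 0.05 (SE), and GSK3B, the kinase that phosphorylates it, one of -0.21 ± 0.05. The genes of the pathway list whose changes lay under 0.5 on the log2 scale were named after their values were seen, since that was the limit set for naming.

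**Figure D4:**
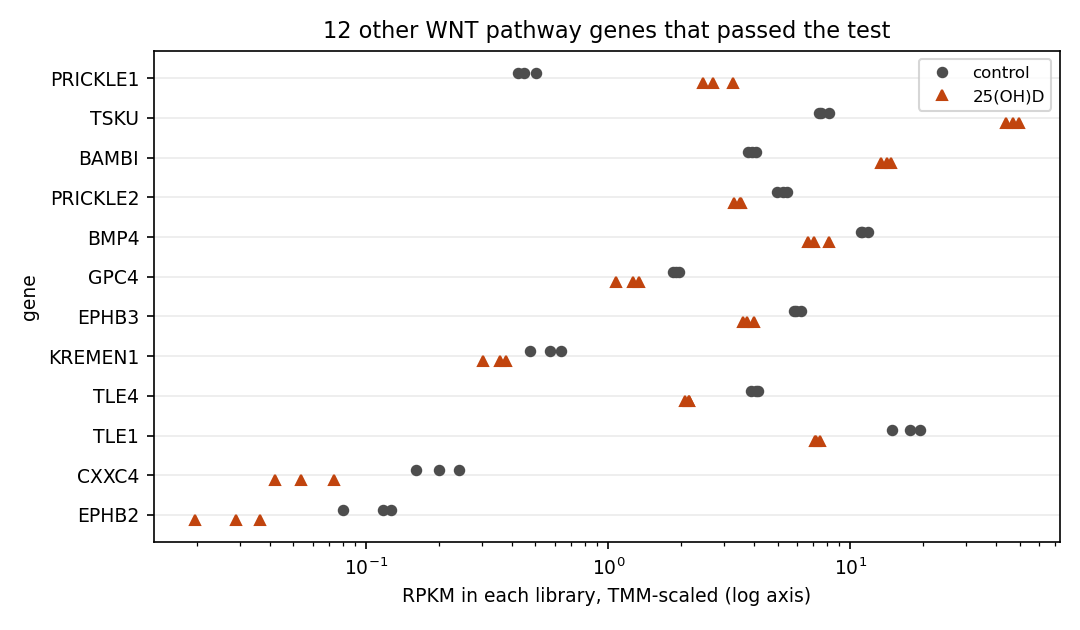
Level in every library (RPKM, horizontal log axis) of the 12 other pathway genes with an adjusted p under 0.05, an absolute log2 fold change of at least 0.5 and the smallest p, with circles for control and triangles for 25(OH)D (n = 3 each). Of these, 3 lie higher and 9 lower with 25(OH)D. The groups overlap for none of them, which picking by smallest p favours. They did not overlap for 33 of the 65 tested pathway genes and for 45.7% of all genes.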

How the data were processed

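Messenger RNA of MDA-MB-453 cells was sequenced in 6 libraries, 3 of control and 3 of 25(OH)D, grouped by their labels. The authors deposited counts, whole reads per gene without normalization, and RPKM values, which equalled count per gene length and library total (largest relative difference 5.1e-15). The gene lengths deposited beside the values, in bases of merged exons, were used for levels. The submitters' processing notes name Trimmomatic 0.36, featureCounts of Subread 1.5.1, edgeR 3.12.1 and GRCh38. The aligner and the strand setting are not given in the sources used here. Start, end and strand of all 42 genes equalled those of GENCODE 29.

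Counts were analysed with edgeR 4.0.16 in R 4.3.3 by TMM normalization, its low-count filter (minimum count 10) and the quasi-likelihood test without covariates, on the whole table, with Benjamini-Hochberg adjustment over 18183 genes. Levels used TMM-scaled library sizes. On simulated data for this comparison with 17940 genes, the test recovered 77 of 100 genes changed by 0.5 on the log2 scale and 99 of 100 changed by 1, and called 7 unchanged genes. The simulation changed no other genes, whereas 33.8% of the genes tested were called in the data. Genes with few counts were not among those changed, and every gene was given the same spread beyond counting error. The simulation therefore does not show how the test performs for genes with few counts or wide spread, such as WNT3, WNT8B, WNT10B, FZD2 and FZD8. DESeq2 1.42.0 and limma 3.58.1 served as alternatives, and the remaining steps used Python 3.11.15, numpy 2.4.6, pandas 2.3.3 and matplotlib 3.10.9. Totals were between 33268860 and 40928176 counts, which limits precision for genes with few counts. Counting error covers sampling only and treats every count as independent, which the reads of a pair are not.

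The genes, the pathway list and the rules were chosen with earlier results of these data known. Every gene matched by the symbol rule was named. Of the other pathway genes, those with an adjusted p under 0.05 and an absolute log2 fold change of at least 0.5 were to be named, at most 12 by smallest p, and the others that were called, all under 0.5, were named after their values were seen. Promoter windows were RefSeq sequences of GRCh38.p14, and protein sequences were not used here. A further marker is not reported here.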

Additional observations from a re-analysis of the deposited data

How the results depend on the processing

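In all 14 other settings, WNT7B stayed higher and FZD6, RNF43, ZNRF3 and AXIN1 stayed lower past the threshold. WNT2B and WNT3 passed in 11 of 14 each and WNT8B in 6, all with the same sign. Low counts limit the last 3 genes. Of the 3 members called higher, 2 remained with DESeq2, which lost WNT8B, and 1 remained with limma on log2(RPKM + 1) or log2(RPKM + 0.1), which lost WNT2B and WNT8B. An added constant shrinks the changes of low genes by construction. The limma fits also used the deposited RPKM, which are scaled by library totals without TMM. Leaving out single libraries, the members called ranged from 1 to 3 higher, the 1 without control replicate 1, and from 4 to 5 lower, and the other pathway genes called ranged from 7 to 10 higher and from 13 to 17 lower. The latter were 8 higher and 21 lower with upper-quartile factors, 7 and 20 with library totals alone, 9 and 14 with DESeq2, and 6 and 15 with limma, against 9 and 17. The limits of the study's volcano plot gave 1 higher and 2 lower. Without the low-count filter WNT10B was also called (adjusted p of 0.0147 in edgeR). Among the genes that missed the threshold, FZD2 had log2 fold changes from -0.73 to 0.31 over the settings. Another scaling moved the median of all genes by at most 0.06.

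Deviations from the group means of same-numbered libraries correlated at -0.0721, -0.0120 and -0.0460 over 18183 genes. The labels do not say whether the replicate numbers pair the libraries, and these correlations cannot settle it. With the number as a replicate block, 2 members were called higher, without WNT8B (adjusted p of 0.0522 in edgeR), and 6 lower, with WNT10B added (adjusted p of 0.0345). Of the other pathway genes, 9 were called higher and 17 lower with the replicate block.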
